A study of Mus musculus with 8 samples.

Results

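Replicates 3 and 4 of each esiRNA were compared with replicates 1 and 2 in mouse embryonic stem cells (ESCs), so that all 8 arrays of the series entered the comparison, 4 in each replicate set. Each set held 2 arrays of cells transfected with esiRNA against luciferase (Luc), a sequence that mouse cells lack and that served as the non-targeting control, and 2 arrays of cells transfected with esiRNA against Rad21, a core subunit of the cohesin ring. An esiRNA is a mixture of short interfering RNAs cut by an enzyme from a longer double-stranded RNA. In every group the cells were R1/E, a mouse ESC line grown without feeder cells on gelatin in serum with LIF, analysed 48 h after 800 ng of the esiRNA had been given to 80000 cells in a well. The labels number the arrays of each esiRNA 1 to 4 as biological replicates and give no culture, passage or date for any number, and the sources used here do not say which Rad21 esiRNA each array received. The split into replicates 1-2 and 3-4 was chosen because a principal component of these same values had separated them, so the p-values are not those of a planned comparison. Nothing says that the numbers stand for separate cultures, so p-values measure only the spread between these samples.

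ESCs in serum and LIF keep themselves undifferentiated while growing fast, and their metabolic genes follow the state of the medium. Cells short of sterols release the SREBP factors from the endoplasmic reticulum, which switch on cholesterol and fatty acid synthesis. Cells short of amino acids phosphorylate eIF2-alpha and translate ATF4, which switches on amino acid synthesis, uptake and tRNA charging. Low oxygen stabilises HIF-1-alpha, which switches on glycolysis and genes such as Bnip3 and Egln3. These programmes are background for the gene lists below, and none of the factors' activities was measured here.

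Values are log2 signals of probe sets, the groups of probes that represent a transcript, and a difference of 1 is a 2-fold difference. Set differences are replicates 3-4 minus replicates 1-2 with the esiRNA target as a covariate, given with their standard error, and a feature was called at an adjusted p under 0.05 over 45037 probe sets. The largest principal component held 66.2% of the variance and separated Rad21 from Luc arrays. The second held 11.6%, with scores of at least 13.4 for the 4 arrays of replicates 1-2 and of at most -13.1 for the 4 arrays of replicates 3-4. The third held 8.19% and set Luc replicates 1-2 and Rad21 replicates 3-4, at -15.5 to -10.5, against Luc replicates 3-4 and Rad21 replicates 1-2, at 9.01 to 15.1. Arrays of the same esiRNA and set correlated across probe sets at 0.99888 to 0.99917, arrays of the same esiRNA in the other set at 0.99785 to 0.99824, and probe sets are not independent replicates.

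**Figure D1:**
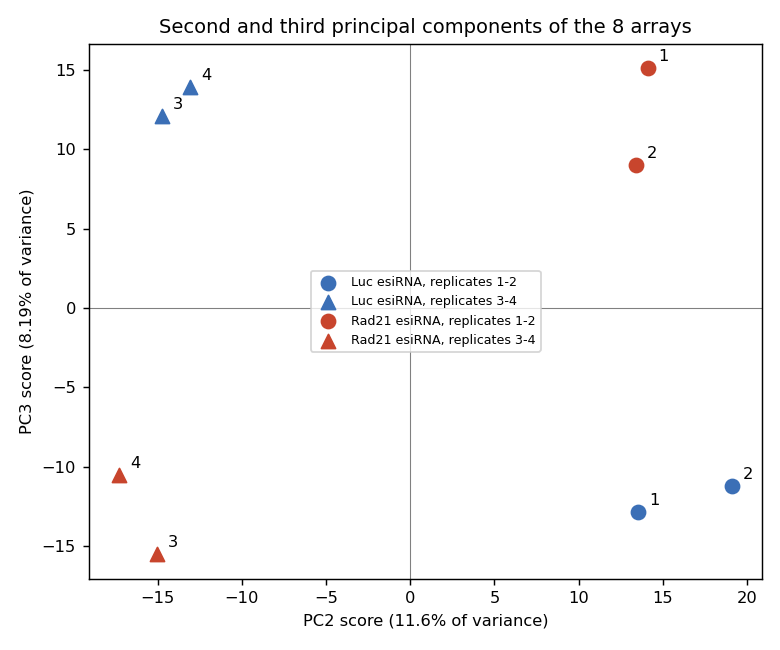
Scores of the 8 arrays on principal components 2 (x) and 3 (y), blue for Luc and red for Rad21, circles for replicates 1-2 and triangles for replicates 3-4, with the replicate number beside each point. Component 2 places replicates 1-2 at 13.4 or more and replicates 3-4 at -13.1 or less, and component 3 crosses the sets between the esiRNAs.

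Between the sets 863 of 45037 probe sets were called (1.92%), 285 higher (0.633%) and 578 lower (1.28%) in replicates 3-4. By gene, taken as the brightest probe set with a single symbol, 524 of 18193 were called (2.88%), 152 higher (0.835%) and 372 lower (2.04%). These shares include dim genes, in which changes are hidden, since 57.5% to 58.1% of probe sets read under 4 on each array. They are therefore low as a comparison for lists of bright genes. The cholesterol, fatty acid, lysosome and glycolysis lists below held 0 genes with a mean under 4. Fitted alone, the 18983 probe sets with a mean of 4 or more gave 1220 calls. The differences were small. The median size over called probe sets was 0.342, and 16 probe sets differed at least 2-fold, 6 higher and 10 lower. For scale, the knock-down on the same arrays called 8177 probe sets (18.2%), of which 1048 differed at least 2-fold. With 1 array left out the set comparison called from 265 probe sets, without Rad21 replicate 4, to 419, without Luc replicate 1, so that removing any array lowered the count by more than 2-fold. Within each esiRNA, the fit with 4 groups called 1184 probe sets in Luc (2.63%) and 1227 in Rad21 (2.72%). Fitted on their own arrays, Luc called 322 probe sets and Rad21 called 0 by limma, with 7100 at an unadjusted p under 0.05 in the Rad21 arrays.

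ESC markers had high signals in both sets. Pou5f1, Nanog, Sox2, Klf4, Zfp42, Esrrb and Dppa5a, the factors and markers of the pluripotent state, lay at or above 10.09 on every array, and none was called between the sets. Pou5f1 read 15.11 and 15.13 in Luc replicates 1-2, 14.97 and 14.98 in Luc replicates 3-4, 14.52 and 14.50 in Rad21 replicates 1-2 and 14.54 and 14.44 in Rad21 replicates 3-4. Its set difference was -0.082 ± 0.036 (adjusted p = 0.406). Of the fibroblast markers, Col1a1, Col1a2, Lum and Dcn stayed at or below 2.89 on every array, Thy1 read 3.66 to 4.65, and Col3a1 read 3.0 to 3.15 in Luc, 4.69 and 4.25 in Rad21 replicates 1-2 and 3.11 and 3.42 in Rad21 replicates 3-4. Col3a1 was called lower in replicates 3-4 within Rad21 (-1.20, adjusted p = 0.0278) and not in the set comparison (adjusted p = 0.297). Gata4, Gata6 and Sox17 of the endoderm, Mixl1, Kdr and Tbx6 of the mesoderm and Elf5 of the trophectoderm did not exceed 2.77. Other defining markers had signal. Foxa2 of the endoderm stood at or below 2.79 in Luc and read 7.14 and 7.06 in Rad21 replicates 1-2 and 7.58 and 7.80 in Rad21 replicates 3-4, higher in the latter within Rad21 by 0.59 (adjusted p = 0.0232). Krt7 and Cdx2 of the trophectoderm read 3.47 to 3.88 and 3.39 to 3.71 in Luc and 6.27 to 6.82 and 4.40 to 5.09 in Rad21. Eomes read 6.52 to 7.39 over all arrays and was called lower in replicates 3-4 within Luc (-0.72, adjusted p = 0.0219). Of the neural markers, Sox1 read 2.91 to 3.86, Tubb3 9.19 to 9.67, and Pax6 is given below with the interactions. None of these markers was called in the set comparison, and their part in the results was not tested. In bulk samples such as these, fewer cells of a type and less RNA per cell cannot be told apart.

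The targeted gene itself was examined by set. Its brightest probe set read 13.62 and 13.42 in Luc replicates 1-2, 13.83 and 13.79 in Luc replicates 3-4, 11.69 and 11.75 in Rad21 replicates 1-2 and 12.37 and 12.52 in Rad21 replicates 3-4. The knock-down was therefore -1.80 in replicates 1-2 and -1.36 in replicates 3-4, both on the log2 scale. Neither the set difference of 0.51 ± 0.10 (adjusted p = 0.0696) nor the interaction with the esiRNA of 0.44 ± 0.12 (adjusted p = 0.201) was called. In the other Rad21 probe sets the set difference was 0.27 (adjusted p = 0.611) and 0.42 (adjusted p = 0.145), and the Rad21 arrays of replicates 3-4 lay above those of replicates 1-2 in all 3 probe sets. Within the Rad21 arrays, where the signal is what the knock-down left, the 4-group fit called the difference of the brightest probe set (0.73 ± 0.083, adjusted p = 0.0181) and not those of the others (0.63 and 0.53, adjusted p = 0.123 and 0.194). Within Luc the brightest differed by 0.29 (adjusted p = 0.177).

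None of 8 measures of signal, spikes, RNA ends and ribosomal RNA differed by an exact permutation test within esiRNA (adjusted p = 0.722 for each, two-sided), in a design whose smallest p is 0.0556. The 18S rRNA signal was 13.74 and 14.02 in Luc replicates 1-2, 12.96 and 12.68 in Luc replicates 3-4, 12.19 and 12.54 in Rad21 replicates 1-2 and 12.75 and 13.06 in Rad21 replicates 3-4. It was thus lower in replicates 3-4 of Luc and higher in replicates 3-4 of Rad21, the arrangement of the third component.

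Among the genes higher in replicates 3-4 under both esiRNAs, Nupr1, a stress-induced chromatin protein, stood first. It read 9.48 and 9.29 in Luc replicates 1-2, 10.28 and 10.12 in Luc replicates 3-4, 6.57 and 6.39 in Rad21 replicates 1-2 and 8.20 and 7.91 in Rad21 replicates 3-4. Every array of replicates 3-4 lay above every array of replicates 1-2 of the same esiRNA, with a set difference of 1.19 ± 0.17 (adjusted p = 0.0294), a 2.29-fold rise. Coch, which encodes the extracellular protein cochlin, read 6.75 and 6.43 in Luc replicates 1-2, 7.41 and 7.31 in Luc replicates 3-4, 9.07 and 9.07 in Rad21 replicates 1-2 and 10.42 and 10.60 in Rad21 replicates 3-4 and rose by 1.10 ± 0.15 (adjusted p = 0.0265). Tesc, a calcium-binding EF-hand protein, rose by 1.01 ± 0.065 (adjusted p = 0.00429). Serpinf1, the secreted factor PEDF, rose by 0.98 ± 0.072 (adjusted p = 0.00562). Its values of 4.38 and 4.09 in Luc and 4.05 and 4.04 in Rad21 replicates 1-2 stood against 5.13 and 5.10 and 5.13 and 5.13 in replicates 3-4. Myl9, a smooth-muscle myosin light chain, rose by 0.77 ± 0.075 (adjusted p = 0.0107). Fgf18, a fibroblast growth factor, rose by 0.68 ± 0.054 (adjusted p = 0.00677). Eno3, the muscle enolase, rose by 0.68 ± 0.074 (adjusted p = 0.0143). The remaining large rises, from 0.71 to 0.84, were Znf41-ps, 9430069I07Rik, 1700042O10Rik, Fcor and Gm9564.

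Trpm1, a cation channel of the TRP family, was the gene with the largest fall among those named by rule. It read 7.50 and 7.38 in Luc replicates 1-2, 6.25 and 6.01 in Luc replicates 3-4, 6.81 and 6.75 in Rad21 replicates 1-2 and 4.02 and 4.09 in Rad21 replicates 3-4. Replicates 3-4 lay below replicates 1-2 under both esiRNAs, with a set difference of -2.02 ± 0.28 (adjusted p = 0.0282), 4.05-fold lower, and the fall was larger in the Rad21 arrays (interaction -1.41 ± 0.12, adjusted p = 0.0276). S100a13, a small calcium-binding protein, read 8.59 and 8.37 in Luc replicates 1-2, 7.26 and 7.34 in Luc replicates 3-4, 8.43 and 8.43 in Rad21 replicates 1-2 and 6.90 and 6.88 in Rad21 replicates 3-4. Its set difference was -1.36 ± 0.086 (adjusted p = 0.00429), 2.57-fold lower. Cav1, the coat protein of caveolae, differed by -1.13 ± 0.17 (adjusted p = 0.0334), and Prmt8, an arginine methyltransferase, by -1.19 ± 0.13 (adjusted p = 0.0127). Cryab, a small heat shock protein, differed by -0.96 ± 0.084 (adjusted p = 0.00807). Lefty1, an extracellular inhibitor of Nodal signalling, read 11.57 and 11.41 in Luc replicates 1-2, 10.19 and 10.31 in Luc replicates 3-4, 13.05 and 13.0 in Rad21 replicates 1-2 and 12.51 and 12.43 in Rad21 replicates 3-4 and differed by -0.90 ± 0.14 (adjusted p = 0.0372). Serpinb1b, Nrcam, Susd2, Ackr3, Scrn1 and Patl2 made up the other large falls, from -1.05 to -0.86. Patl2, a repressor of translation in oocytes, had a knock-down difference of -0.068 (adjusted p = 0.365) and a set difference of -0.86 ± 0.038 (adjusted p = 0.00269).

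**Figure D2:**
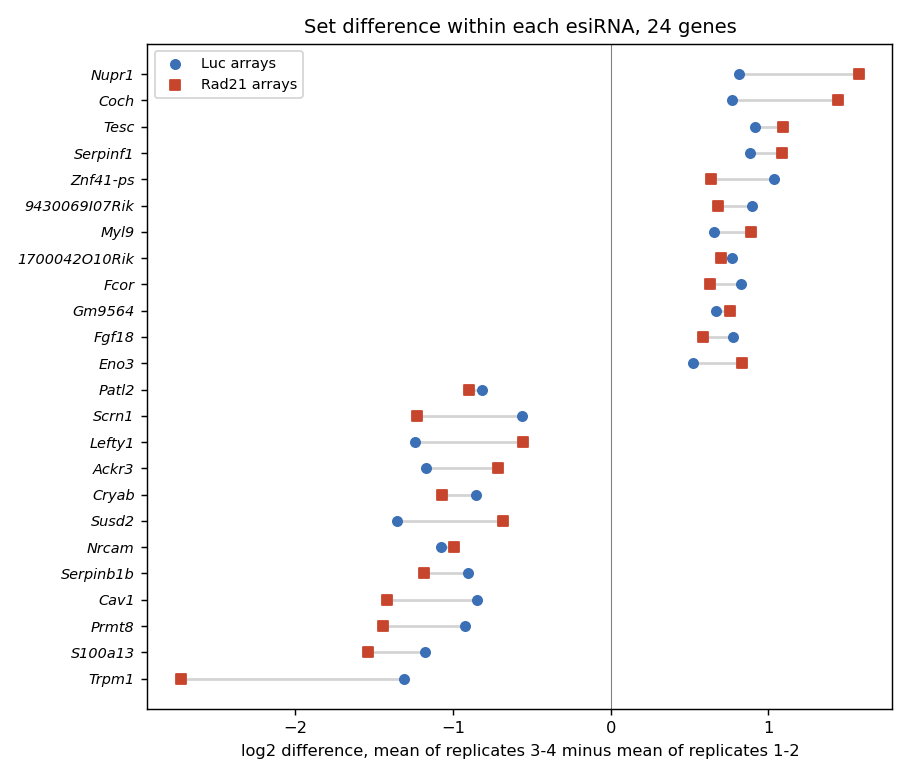
Set difference (x, log2, mean of replicates 3-4 minus mean of replicates 1-2) within Luc arrays (blue circles) and within Rad21 arrays (red squares) for the 12 largest rises and 12 largest falls, which were chosen for lying on one side under both esiRNAs. The points of a gene are joined, and Trpm1 shows the longest span, from -1.31 in Luc to -2.72 in Rad21.

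How far the sets differed in the same way under both esiRNAs was described by choosing probe sets in one esiRNA and reading the other. Of the 322 probe sets called in the Luc arrays alone, 243 (75.5%) had the same direction in the Rad21 arrays, where 52.6% of all probe sets shared a direction. The median ratio of the Rad21 difference to the Luc difference was 0.256 for them. Among 567 probe sets chosen in the Rad21 arrays at an unadjusted p under 0.001, 415 (73.2%) had the same direction in the Luc arrays. Over all probe sets the set differences within Luc and within Rad21 correlated at r = 0.190 (rho = 0.177), a description over 45037 probe sets measured on the same arrays.

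In the list of cholesterol synthesis and uptake, 8 of 20 measured genes were called lower in replicates 3-4 and 0 higher, beside 2.04% of all genes lower, and 19 of 20 had a negative difference. The median over the list was -0.34, beside 0.005 over all genes. Within Luc 10 were called lower, beside 2.58% of all genes, and within Rad21 4, beside 2.11%. Insig1, which retains the SREBP complex in the endoplasmic reticulum and is itself an SREBP target, read 11.13 and 11.02 in Luc replicates 1-2, 10.39 and 10.38 in Luc replicates 3-4, 11.30 and 11.31 in Rad21 replicates 1-2 and 10.59 and 10.64 in Rad21 replicates 3-4. Its set difference was -0.69 ± 0.029 (adjusted p = 0.00269), a 1.61-fold fall of the same size within Luc (-0.69) and Rad21 (-0.69). The enzymes Mvk, mevalonate kinase, Cyp51, lanosterol demethylase, and Fdft1, squalene synthase, differed by -0.48 ± 0.049 (adjusted p = 0.0119), -0.45 ± 0.049 (adjusted p = 0.014) and -0.39 ± 0.053 (adjusted p = 0.0261). Msmo1, Nsdhl, Idi1 and Sqle, enzymes of the same route, were called with differences from -0.37 to -0.19. Ebp was the single member with a positive difference (0.078 ± 0.10, adjusted p = 0.811). With 1 array left out, 3 (without Rad21 replicate 2) to 6 (without Rad21 replicate 3) of these genes were called.

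Of 20 genes of fatty acid synthesis, 3 were called lower, beside 2.04% of all genes, 0 higher, and 18 had a negative difference (median -0.13). Both arrays of replicates 3-4 lay below both of replicates 1-2 under each esiRNA in 6 of the 20. The share of all genes with that order was not counted, so this number says nothing particular about the list. The called genes were Scd1 and Scd2, the desaturases that make oleate from stearate, and Srebf1, which encodes SREBP-1. Scd1 read 10.43 and 10.33 in Luc replicates 1-2, 9.40 and 9.50 in Luc replicates 3-4, 9.76 and 9.92 in Rad21 replicates 1-2 and 9.18 and 9.19 in Rad21 replicates 3-4 and differed by -0.79 ± 0.07 (adjusted p = 0.00816). Scd2 differed by -0.74 ± 0.066 (adjusted p = 0.00833) and Srebf1 by -0.66 ± 0.067 (adjusted p = 0.0119). In all 3 genes both arrays of replicates 3-4 lay below both arrays of replicates 1-2 under each esiRNA.

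Of 28 measured genes of autophagy and the lysosome, 8 were called lower, beside 2.04% of all genes, and 0 higher (median -0.21). A positive difference was found in 5. Within each esiRNA 4 were called lower, beside 2.58% of all genes in Luc and 2.11% in Rad21. Ctsd, the aspartic protease cathepsin D, read 10.42 and 10.18 in Luc replicates 1-2, 10.01 and 9.85 in Luc replicates 3-4, 10.49 and 10.57 in Rad21 replicates 1-2 and 10.08 and 9.95 in Rad21 replicates 3-4 and differed by -0.44 ± 0.071 (adjusted p = 0.0381). Npc2, which carries cholesterol out of lysosomes, differed by -0.42 ± 0.049 (adjusted p = 0.0168), Hexa, a subunit of hexosaminidase, by -0.39 ± 0.034 (adjusted p = 0.00806), and Ctsa, the protective protein cathepsin A, by -0.39 ± 0.039 (adjusted p = 0.0116). Ctsb, Lamp1, the calcium channel Mcoln1 and the autophagy receptor Sqstm1 were the other called members. The knock-down differences of Ctsd and Npc2 were 0.16 (adjusted p = 0.22) and -0.11 (adjusted p = 0.214). Without Luc replicate 4 the count was 2, and without Luc replicate 2 or 3 it was 5.

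Of the 37 gene lists, the integrated stress response had the most genes called higher in replicates 3-4. Of its 30 measured genes 9 were called higher, beside 0.835% of all genes, and 0 lower, with a median of 0.37 and 26 positive differences. The called genes were Nupr1, given above, and genes of serine synthesis, amino acid uptake and ATF4 feedback. Trib3, a pseudokinase that restrains ATF4, read 9.0 and 9.10 in Luc replicates 1-2, 9.40 and 9.52 in Luc replicates 3-4, 7.44 and 7.26 in Rad21 replicates 1-2 and 8.28 and 8.29 in Rad21 replicates 3-4 and rose by 0.67 ± 0.11 (adjusted p = 0.0449). Psat1, phosphoserine aminotransferase, read 13.72 and 13.62 in Luc replicates 1-2, 14.16 and 14.32 in Luc replicates 3-4, 12.96 and 12.88 in Rad21 replicates 1-2 and 13.65 and 13.67 in Rad21 replicates 3-4 and rose by 0.66 ± 0.055 (adjusted p = 0.0077). Psph, the phosphatase that completes serine synthesis, rose by 0.50 ± 0.06 (adjusted p = 0.019). The first enzyme of that route, Phgdh, rose by 0.40 ± 0.059 (adjusted p = 0.0332), asparagine synthetase Asns by 0.37 ± 0.061 (adjusted p = 0.0416) and the serine hydroxymethyltransferase Shmt2 by 0.37 ± 0.055 (adjusted p = 0.0327). Slc7a5 and Slc3a2, the subunits of a transporter of large neutral amino acids, rose by 0.34 ± 0.054 (adjusted p = 0.0376) and 0.28 ± 0.044 (adjusted p = 0.0369). Atf4 itself was not called (0.29 ± 0.11, adjusted p = 0.308), nor was the proapoptotic target Ddit3 (-0.17 ± 0.065, adjusted p = 0.315).

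The knock-down comparison, which uses the same arrays, called 21 of these 30 genes lower in Rad21 arrays, beside 14.9% of all genes, and 0 higher. Nupr1, for example, had a knock-down difference of -2.52 and a set difference of 1.19 ± 0.17, and Psat1 -0.66 and 0.66 ± 0.055. Counted within each esiRNA in the fit with 4 groups, 6 members were called higher in Luc replicates 3-4, beside 1.08% of all genes, and 14 in Rad21 replicates 3-4, beside 1.66%. Chac1, a glutathione-degrading enzyme induced by ATF4, read 9.39 and 9.46 in Luc replicates 1-2, 9.92 and 9.88 in Luc replicates 3-4, 6.57 and 6.61 in Rad21 replicates 1-2 and 9.21 and 8.97 in Rad21 replicates 3-4. The set difference was 0.47 in Luc and 2.50 in Rad21, and the interaction of 2.03 ± 0.11 was called (adjusted p = 0.0145). Herpud1, which works in protein export from the endoplasmic reticulum, also had a called positive interaction (0.98 ± 0.10, adjusted p = 0.0334). Aldh1l2, a mitochondrial folate enzyme, had a negative one (-1.19 ± 0.056, adjusted p = 0.0096). It read 3.68 and 3.59 in Luc replicates 1-2, 4.93 and 4.95 in Luc replicates 3-4, 3.65 and 3.63 in Rad21 replicates 1-2 and 3.78 and 3.74 in Rad21 replicates 3-4, a difference of 1.30 within Luc and 0.12 within Rad21. The count of called members of the list depended on single arrays, at 1 without Rad21 replicate 1 and 3 without Luc replicate 3, with 2 in each of the other 6 fits with 1 array left out, and 17 with the 18S rRNA signal as a covariate.

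**Figure D3:**
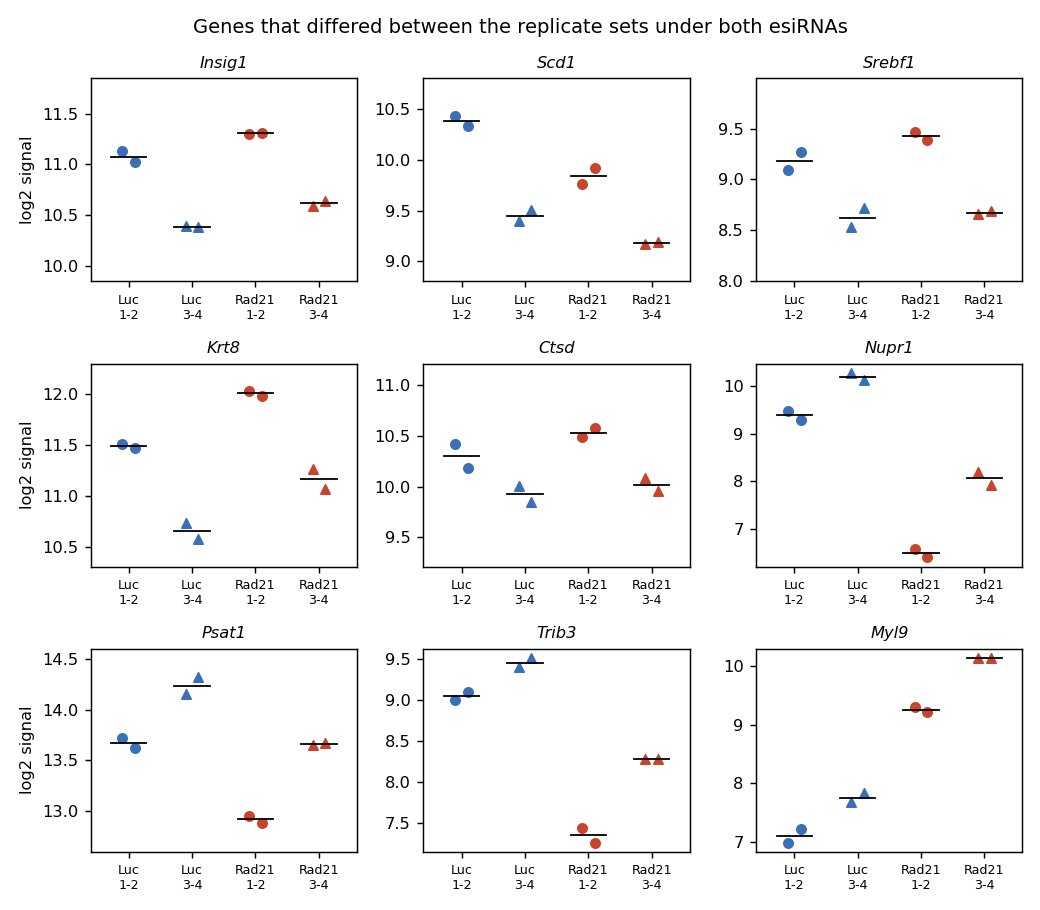
Log2 signal (y) of 9 genes on each array by esiRNA and replicate set (x), blue for Luc and red for Rad21, circles for replicates 1-2, triangles for replicates 3-4, with a line at each mean and a y scale of its own in each panel. Insig1, Scd1, Srebf1, Krt8 and Ctsd lie lower and Nupr1, Psat1, Trib3 and Myl9 higher in replicates 3-4 within each esiRNA.

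Promoter sequences are shown for the members that changed most in the lists with the largest shares called, because textbook regulators of these lists bind known motifs. They are from RefSeq on GRCm38.p6, each from 250 bases before to 30 bases after the gene's annotated start, 5′ to 3′ on the gene's strand. Capitals mark matches to TGATGNAAN or TTGCATCA on either strand in Nupr1, Trib3 and Psat1, the composite element read by ATF4 and C/EBP factors. In Insig1 the search was for TCACNCCAC, a sterol regulatory element, on either strand. In Ctsd capitals mark TCACGTGA, which reads the same on both strands and is the core of the element bound by TFEB, a motif added after the lists had been read. The promoters lie at chr7:126625441-126625720, minus strand (Nupr1), chr2:152344031-152344310, minus strand (Trib3), chr19:15925030-15925309, minus strand (Psat1), chr5:28071162-28071441, plus strand (Insig1) and chr7:142387798-142388077, minus strand (Ctsd).
Nupr1: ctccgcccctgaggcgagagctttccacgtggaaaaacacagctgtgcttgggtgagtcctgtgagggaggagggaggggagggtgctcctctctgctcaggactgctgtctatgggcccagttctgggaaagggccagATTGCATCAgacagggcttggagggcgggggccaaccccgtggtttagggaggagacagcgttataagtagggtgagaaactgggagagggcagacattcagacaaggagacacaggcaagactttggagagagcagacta
Trib3: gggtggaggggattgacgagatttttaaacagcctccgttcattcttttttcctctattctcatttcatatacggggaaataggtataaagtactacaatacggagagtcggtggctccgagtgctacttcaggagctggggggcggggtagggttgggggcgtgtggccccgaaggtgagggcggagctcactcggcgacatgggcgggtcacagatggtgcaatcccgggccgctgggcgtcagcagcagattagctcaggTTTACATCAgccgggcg
Psat1: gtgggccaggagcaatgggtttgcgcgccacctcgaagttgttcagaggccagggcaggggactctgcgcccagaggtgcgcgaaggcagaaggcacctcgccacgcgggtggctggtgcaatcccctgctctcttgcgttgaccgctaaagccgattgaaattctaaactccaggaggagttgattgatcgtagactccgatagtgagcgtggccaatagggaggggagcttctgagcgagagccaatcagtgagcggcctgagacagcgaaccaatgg
Insig1: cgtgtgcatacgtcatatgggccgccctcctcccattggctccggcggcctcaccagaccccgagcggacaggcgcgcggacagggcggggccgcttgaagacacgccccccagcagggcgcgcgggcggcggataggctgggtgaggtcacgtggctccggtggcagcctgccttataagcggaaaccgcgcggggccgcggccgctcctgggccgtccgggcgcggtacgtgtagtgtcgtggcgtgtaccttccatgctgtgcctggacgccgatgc
Ctsd: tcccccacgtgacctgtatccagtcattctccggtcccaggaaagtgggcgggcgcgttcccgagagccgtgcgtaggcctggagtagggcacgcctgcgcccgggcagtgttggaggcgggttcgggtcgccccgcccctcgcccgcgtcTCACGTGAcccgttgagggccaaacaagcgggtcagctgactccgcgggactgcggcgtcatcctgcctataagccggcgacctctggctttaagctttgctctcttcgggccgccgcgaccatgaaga

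The Nupr1 match is TTGCATCA with its first base 110 bases before the start, where the overlapping longer motif matches as well on the other strand, and the Trib3 match begins at base 14 of the transcript. Psat1 and Insig1 held none of the letters searched for in this window. In windows from 250 bases before to 50 after the start, 3.96% of 32851 promoters held a match to either stress motif. Of the 8 called members with an entry, Nupr1, Trib3 and Asns held one, as did 6 of 14 members called in neither comparison. Both Chac1 and Herpud1 held the stress motif, among 4 members called for the interaction with an entry. The sterol element was in 1.24% of promoters and in 0 of the 6 called cholesterol genes with an entry. TCACGTGA was in 0.974% of promoters and in 3 of 7 called lysosomal genes with an entry, namely Ctsa, Ctsd and Mcoln1. It was also in 2 of 15 lysosomal members called in neither comparison. A match describes letters in a window and not a bound site.

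In the glycolysis list 5 of 19 genes were called lower in replicates 3-4, beside 2.04% of all genes, and 1 higher, beside 0.835%, with a median of -0.24. Hexokinase 1 (Hk1) and the liver-type phosphofructokinase (Pfkl), which act early in the pathway, differed by -0.39 ± 0.062 (adjusted p = 0.0375) and -0.43 ± 0.063 (adjusted p = 0.0314). Phosphoglycerate kinase Pgk1 differed by -0.34 ± 0.056 (adjusted p = 0.0435) and lactate dehydrogenase B by -0.37 ± 0.053 (adjusted p = 0.0296). The glucose transporter Slc2a3 was the fifth, and Eno3 was the member that rose. Leaving out 1 array left 0 to 3 members called lower, with 0 called in 6 of the 8 fits by limma (12 to 15 lower at an unadjusted p under 0.05) and 3 without Rad21 replicate 3.

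Of 26 measured hypoxia-inducible genes 5 were called lower in the set comparison, beside 2.04% of all genes, and 0 higher, beside 0.835%. A negative difference was found in 24, and the median was -0.38 (-0.49 within Luc and -0.21 within Rad21). Within Luc 14 were called lower, beside 2.58% of all genes, and within Rad21 7, beside 2.11%. With 1 array left out 2 or 3 were called lower in the set comparison, 3 without Rad21 replicate 2 or 3 and 2 in the other fits. The 5 were Anxa3 (-0.67 ± 0.036, adjusted p = 0.00304), Narf, Fam162a, Higd1a and Pgk1. In addition 6 members had a called positive interaction, beside 0.627% of all genes, and 0 a negative one, beside 0.401%. Egln3, a prolyl hydroxylase that marks HIF-alpha for destruction and is itself induced by HIF, read 9.14 and 9.36 in Luc replicates 1-2, 7.41 and 7.26 in Luc replicates 3-4, 6.80 and 6.99 in Rad21 replicates 1-2 and 7.10 and 6.64 in Rad21 replicates 3-4. The Luc arrays of replicates 1-2 stood apart from all other arrays (interaction 1.89 ± 0.24, adjusted p = 0.0464). Egln1, the main oxygen sensor of the same family, read 8.34 and 8.26 in Luc replicates 1-2, 6.84 and 7.03 in Luc replicates 3-4, 7.68 and 7.67 in Rad21 replicates 1-2 and 7.37 and 7.57 in Rad21 replicates 3-4 (interaction 1.16 ± 0.13, adjusted p = 0.036). Ndrg1 read 9.52 and 9.73 in Luc replicates 1-2, 7.86 and 7.94 in Luc replicates 3-4, 8.95 and 8.98 in Rad21 replicates 1-2 and 8.40 and 8.47 in Rad21 replicates 3-4, lower in replicates 3-4 under both esiRNAs with the larger gap in Luc (interaction 1.19 ± 0.10, adjusted p = 0.0276). Bnip3, a mitophagy receptor, had an interaction of 0.92 ± 0.091 (adjusted p = 0.0318) and a set difference of -1.04 ± 0.18 (adjusted p = 0.0507). P4ha2, a collagen prolyl hydroxylase, differed by -0.93 within Luc and -0.00032 within Rad21 (interaction 0.93 ± 0.072, adjusted p = 0.0265), and Ddit4, an inhibitor of mTORC1, by -1.12 and -0.23 (interaction 0.88 ± 0.07, adjusted p = 0.0269). Vegfa, the angiogenic growth factor, ran the other way, reading 8.08 and 7.77 in Luc replicates 1-2, 8.53 and 8.40 in Luc replicates 3-4, 5.63 and 5.65 in Rad21 replicates 1-2 and 6.81 and 7.0 in Rad21 replicates 3-4, with a set difference of 0.90 ± 0.16 (adjusted p = 0.0513). The core hypoxia response element ACGTG, searched on both strands, was in 19.6% of promoters and in all 5 of the members called for the interaction that had an entry, and in 9 of 14 members called in neither comparison.

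The 18S rRNA signal moved with these interactions, being highest in Luc replicates 1-2. With that signal as a covariate, 0 of the 26 genes and 0 probe sets in all had a called interaction by limma, with 6 and 1868 at an unadjusted p under 0.05, while the Egln3 estimate stayed at 1.75. From replicates 1-2 to 3-4 the signal itself fell in Luc and rose in Rad21, by more than the 2 arrays of a group differed. The fit could therefore hardly tell the covariate apart from the interaction, and its loss of calls decides nothing about the signal. The part of the 18S rRNA signal in the result was not tested further. Without Luc replicate 3, Luc replicate 4, Rad21 replicate 3 or Rad21 replicate 4 also 0 of the 26 were called (14 to 16 at an unadjusted p under 0.05), against 5 without Luc replicate 1.

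**Figure D4:**
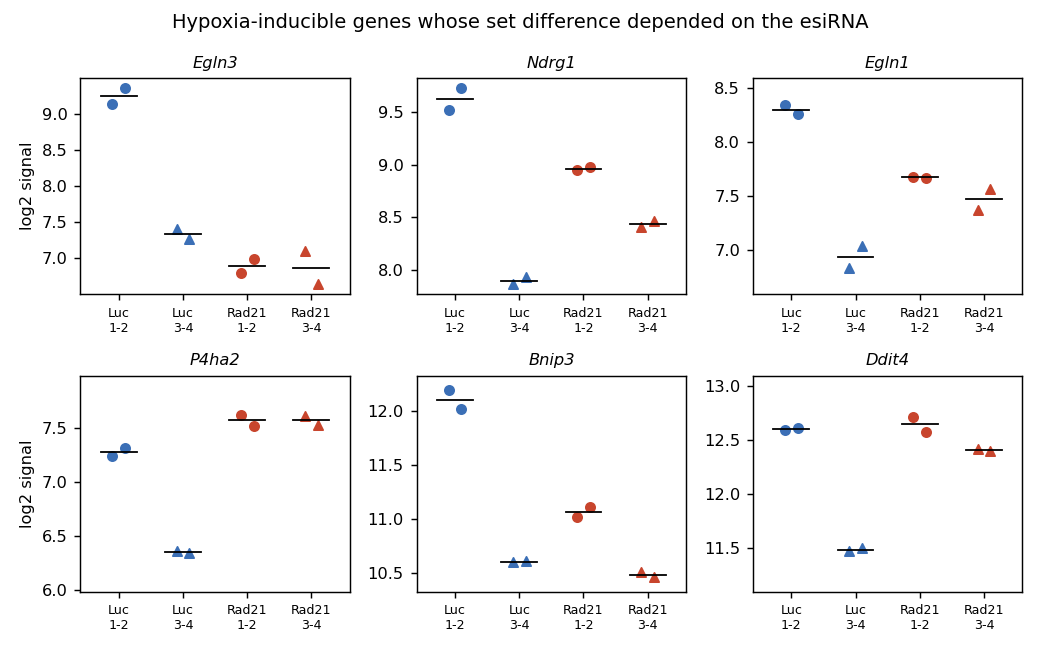
Log2 signal (y) on each array by esiRNA and replicate set (x) for the 6 hypoxia-inducible genes with a called interaction, with the same colours and symbols for esiRNA and set and a line at each mean. In Luc the fall from replicates 1-2 to 3-4 ranges from -0.93 (P4ha2) to -1.91 (Egln3), and in Rad21 from -0.00032 (P4ha2) to -0.58 (Bnip3).

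Several epithelial keratins and annexins were lower in replicates 3-4. Krt8 and Krt18, the paired keratins of simple epithelia, read 11.51 and 11.47 in Luc replicates 1-2, 10.74 and 10.57 in Luc replicates 3-4, 12.04 and 11.99 in Rad21 replicates 1-2 and 11.26 and 11.06 in Rad21 replicates 3-4 for Krt8, with set differences of -0.84 ± 0.055 (adjusted p = 0.00429) and -0.80 ± 0.05 (adjusted p = 0.00429). Krt19 (-0.68 ± 0.12, adjusted p = 0.0488), the desmosomal linker Dsp (-0.44 ± 0.051, adjusted p = 0.0162) and Cldn4 (-0.41 ± 0.056, adjusted p = 0.026), a tight junction protein, brought the adhesion list to 5 of 25 called lower, beside 2.04% of all genes, and 0 higher (median -0.12). It was at 2 in 5 of the 8 fits with 1 array left out, those without Luc replicate 3, Luc replicate 4 and Rad21 replicates 1, 2 and 4. The membrane-binding annexins Anxa2, Anxa1 and Anxa3 differed by -0.81 ± 0.072 (adjusted p = 0.00833), -0.68 ± 0.051 (adjusted p = 0.0058) and -0.67 ± 0.036 (adjusted p = 0.00304). They stood in the list of SRF and cytoskeletal targets, in which 4 of 25 genes were lower, beside 2.04% of all genes, the fourth being Tagln, and Myl9 was higher. Of 23 trophectoderm markers 4 were lower, beside 2.04% of all genes, namely the 3 keratins and Lgals3, a galectin (-0.54 ± 0.063, adjusted p = 0.0172), while the defining markers Elf5, Cdx2, Krt7 and Eomes were not called.

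Of 27 germline genes measured, 3 were called higher in replicates 3-4, beside 0.835% of all genes, and 0 lower. A positive difference was found in 24, and the median was 0.25 (0.43 within Luc, 0.06 within Rad21). Stk31 read 7.68 and 7.46 in Luc replicates 1-2, 8.26 and 8.36 in Luc replicates 3-4, 8.43 and 8.56 in Rad21 replicates 1-2 and 9.04 and 9.04 in Rad21 replicates 3-4 and rose by 0.64 ± 0.068 (adjusted p = 0.0125). Piwil2, a PIWI protein of the piRNA pathway, rose by 0.63 ± 0.094 (adjusted p = 0.0324) and Mael, which acts in the same pathway, by 0.32 ± 0.054 (adjusted p = 0.0434). With 1 array left out 1 of these genes was called, or 2 without Rad21 replicate 4. Among 28 imprinted genes the growth restrainers Grb10 (0.56 ± 0.049, adjusted p = 0.00816) and Phlda2 (0.32 ± 0.055, adjusted p = 0.0459) rose, as did the microRNA host transcript Mirg (0.65 ± 0.085, adjusted p = 0.0235), and Impact fell by 0.21 (adjusted p = 0.0407). Over all genes 0.835% were called higher and 2.04% lower.

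Bmp4, a ligand that ESCs make and respond to, read 11.41 and 11.37 in Luc replicates 1-2, 10.89 and 10.92 in Luc replicates 3-4, 9.97 and 9.92 in Rad21 replicates 1-2 and 9.36 and 9.38 in Rad21 replicates 3-4 and differed by -0.53 ± 0.028 (adjusted p = 0.00304). With Lefty1 it made 2 of 30 genes of the Nodal, TGF-beta and BMP pathway, all lower, beside 2.04% of all genes. Of 31 serum response genes 2 were called higher, beside 0.835% of all genes, and 1 lower, beside 2.04%. Egr1, an immediate early target of ERK signalling, rose by 0.64 ± 0.10 (adjusted p = 0.0381) and Spry4, a feedback inhibitor of that pathway, by 0.47 ± 0.076 (adjusted p = 0.0398). The phosphatase Dusp4 differed by -0.28 ± 0.046 (adjusted p = 0.0404). Of the p53 targets 2 of 27 were lower, beside 2.04% of all genes, the cell cycle inhibitor Cdkn1a (-0.48 ± 0.041, adjusted p = 0.00798) and Perp (-0.45 ± 0.051, adjusted p = 0.0155). Within Rad21 12 of the 27 were called lower, beside 2.11% of all genes, and 1 higher, beside 1.66%. Within Luc 3 were called lower, beside 2.58% of all genes, and 2 higher, beside 1.08%. The medians were -0.31 within Rad21 and -0.025 within Luc. Eda2r, a receptor of the TNF family, and Sesn2, a sestrin, had called negative interactions (-0.65 ± 0.045, adjusted p = 0.0194, and -0.64 ± 0.085, adjusted p = 0.0491). Ccng2, a cyclin, and Tigar, a fructose bisphosphatase, had positive ones (1.05 ± 0.11, adjusted p = 0.0319, and 0.44 ± 0.044, adjusted p = 0.0318). Of all genes 0.401% had a called negative interaction and 0.627% a positive one. Tfrc, the transferrin receptor, differed by -0.46 ± 0.069 (adjusted p = 0.0338).

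Among 28 pluripotency factors measured, Gbx2 was higher (0.53 ± 0.044, adjusted p = 0.0077) and Tfcp2l1 lower (-0.38 ± 0.034, adjusted p = 0.00807), with a list median of -0.00094. Over all genes 0.835% were called higher and 2.04% lower. Tfcp2l1 read 12.36 and 12.36 in Luc replicates 1-2, 11.93 and 12.05 in Luc replicates 3-4, 10.74 and 10.78 in Rad21 replicates 1-2 and 10.40 and 10.32 in Rad21 replicates 3-4. By limma, 0 genes were called between the sets among the lists of primed epiblast markers, oxidative phosphorylation, ribosomal proteins, ribosome biogenesis and DNA replication, whose medians lay between -0.06 and 0.09 and in which 10, 9, 5, 6 and 7 genes had an unadjusted p under 0.05.

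The lists that follow had at most 2 calls each, beside 2.04% of all genes called lower and 0.835% higher. Such counts are too small to describe a list. Cohesin subunits and regulators gave 1 call among 20 genes, Cdca5 or sororin, which protects cohesin on chromatin (-0.19 ± 0.028, adjusted p = 0.033). Mitosis genes gave 2 of 30, both lower, the phosphatase Cdc25b (-0.44 ± 0.041, adjusted p = 0.00997) and the spindle factor Tpx2 (-0.13 ± 0.023, adjusted p = 0.0476). Of 24 neural and ectoderm markers the neurofilament genes Nefl (-0.34 ± 0.035, adjusted p = 0.0122) and Nefm (-0.43 ± 0.046, adjusted p = 0.0141) were lower. In each of the lists of Wnt targets, mesoderm markers and metal and iron genes 2 genes were lower, among them the Wnt inhibitor Notum (-0.39 ± 0.069, adjusted p = 0.0488), the transcription factor Snai2 (-0.79 ± 0.14, adjusted p = 0.0488) and the zinc transporter Slc39a4 (-0.22 ± 0.036, adjusted p = 0.0393) beside Bmp4 and Tfrc. The endoderm, fibroblast, heat shock and X-linked or Y-linked lists had 1 gene lower each, namely the lipid carrier Apoe (-0.35 ± 0.035, adjusted p = 0.0116), Tagln, Cryab and the ubiquitin ligase gene Rlim (-0.14 ± 0.024, adjusted p = 0.0447). Single genes were higher among Nrf2 targets, the glutathione transferase Gstp1 (0.20 ± 0.034, adjusted p = 0.0465), and in the unfolded protein response, its factor Xbp1 (0.25 ± 0.04, adjusted p = 0.0394). The LIF list held Gbx2 and Tfcp2l1 again. In 12 genes of the 2-cell-like state, 18 of DNA methylation and 2 replication-dependent histone genes limma called 0, with 2, 6 and 0 at an unadjusted p under 0.05. Of these, 7, 1 and 1 had a mean under 4, where changes are hidden.

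**Figure D5:**
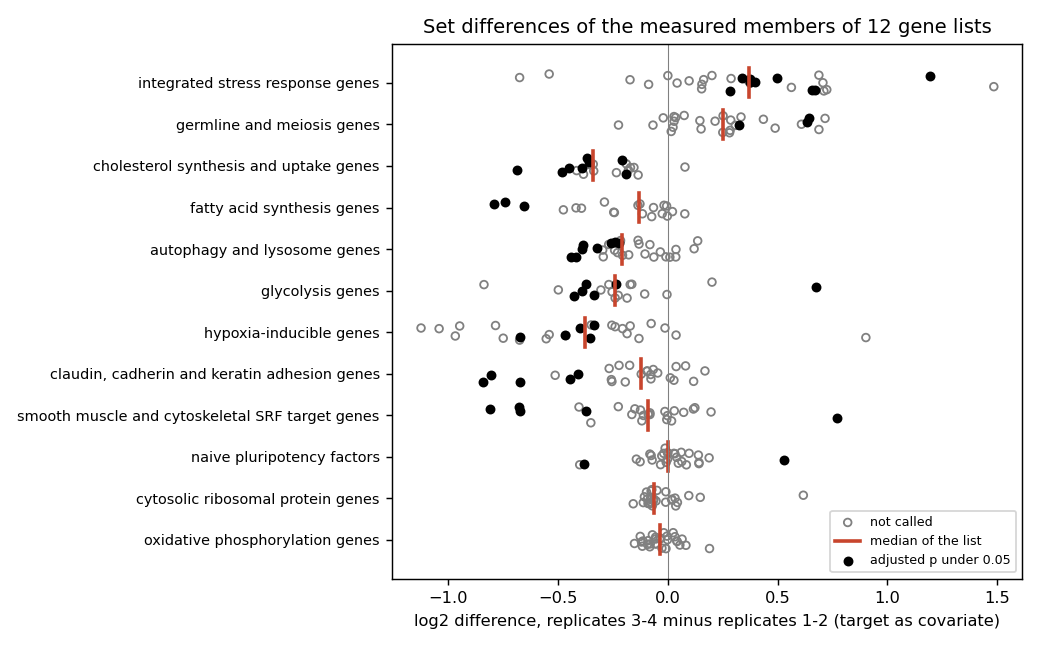
Set difference (x, log2, replicates 3-4 minus replicates 1-2 with the esiRNA as a covariate) of every measured member of 12 gene lists, filled where the adjusted p was under 0.05 and open elsewhere, with a red line at the list's median. The median is highest for the integrated stress response (0.37) and lowest for hypoxia-inducible genes (-0.38), next to cholesterol synthesis and uptake (-0.34).

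The set difference depended on the esiRNA for 350 probe sets (0.777%) and 187 genes (1.03%), of which 114 were positive and 73 negative, a positive interaction meaning that replicates 3-4 minus replicates 1-2 was higher within Rad21 than within Luc. In 129 of the 187 genes the set differences within Luc and within Rad21 had opposite signs. Genes called for the interaction are chosen by the gap between these same differences, which favours opposite signs. Over all probe sets, without that choice, 52.6% shared a direction. In 95 genes the Luc difference was the larger in size and in 92 the Rad21 difference. The median size of called interactions was 0.742, and 88 of the 350 probe sets reached 2-fold. The count was 0 without Luc replicate 4 by limma (4784 at an unadjusted p under 0.05), and 22 without Rad21 replicate 3, 56 without Luc replicate 3, 62 without Rad21 replicate 4, 77 without Rad21 replicate 1 and 82 without Luc replicate 2, against 315 without Luc replicate 1 or Rad21 replicate 2. It was 0 with the 18S rRNA signal as a covariate, which that fit could hardly tell apart from the interaction.

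Hopx, an atypical homeodomain protein, had a called interaction (1.92 ± 0.085, adjusted p = 0.0096). It read 8.31 and 8.28 in Luc replicates 1-2, 7.91 and 7.97 in Luc replicates 3-4, 4.40 and 4.50 in Rad21 replicates 1-2 and 5.95 and 6.09 in Rad21 replicates 3-4, so that the knock-down difference was -3.85 in replicates 1-2 and -1.92 in replicates 3-4. Msx1, a homeobox factor of mesoderm and neural crest, stood at 3.86 to 3.96 in all Luc arrays, at 3.93 and 4.12 in Rad21 replicates 1-2 and at 5.72 and 6.06 in Rad21 replicates 3-4 (interaction 1.82 ± 0.17, adjusted p = 0.0295). Mrc2, a collagen-binding receptor, showed the same order, with 4.59 and 4.64 against 6.15 and 6.68 in the Rad21 arrays (interaction 1.83 ± 0.23, adjusted p = 0.0461). Tmprss13, a membrane serine protease, differed by -0.95 within Luc and 0.82 within Rad21 (interaction 1.77 ± 0.14, adjusted p = 0.027).

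In the other direction, Parva, a focal adhesion protein, stood at 3.59 to 3.83 in Luc and read 6.06 and 5.59 in Rad21 replicates 1-2 against 4.19 and 3.96 in Rad21 replicates 3-4 (interaction -1.85 ± 0.24, adjusted p = 0.0481). Pcdh8, a protocadherin of the paraxial mesoderm, showed the same order, with 6.21 and 6.02 against 4.60 and 4.91 (interaction -1.44 ± 0.17, adjusted p = 0.0394). The histone gene H3f3b, the peptidase gene Dpp4 and the antisense gene Tsix differed by 1.06, 0.81 and 1.18 within Luc and by -0.61, -0.64 and -0.22 in Rad21. Tsix is the antisense partner of Xist, and the labelling was not stated to keep strand. Pax6, a neural factor, read 6.46 and 6.39 in Luc replicates 1-2, 7.22 and 7.22 in Luc replicates 3-4, 7.39 and 7.27 in Rad21 replicates 1-2 and 7.27 and 7.36 in Rad21 replicates 3-4 (interaction -0.81 ± 0.08, adjusted p = 0.0318). Fgf5, a marker of the primed epiblast, read 5.96 and 5.66 in Luc replicates 1-2, 4.93 and 5.12 in Luc replicates 3-4, 5.71 and 5.60 in Rad21 replicates 1-2 and 5.82 and 6.19 in Rad21 replicates 3-4, and neither its set difference (-0.22 ± 0.25, adjusted p = 0.782) nor its interaction (1.13 ± 0.22, adjusted p = 0.11) was called.

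Interferon-induced genes had 0 of 30 members called between the sets by limma (6 at an unadjusted p under 0.05), and 4 with a positive interaction, beside 0.627% of all genes. Of the 30, 17 had a mean under 4, where changes are hidden. The GTPase Gbp2 read 8.03 and 8.20 in Luc replicates 1-2, 7.93 and 8.03 in Luc replicates 3-4, 8.19 and 8.35 in Rad21 replicates 1-2 and 9.49 and 9.60 in Rad21 replicates 3-4 (interaction 1.41 ± 0.12, adjusted p = 0.0276). Irf1, a transcription factor of the interferon response, read 8.83 and 8.95 in Luc replicates 1-2, 8.25 and 8.37 in Luc replicates 3-4, 8.73 and 8.67 in Rad21 replicates 1-2 and 9.34 and 9.18 in Rad21 replicates 3-4 (interaction 1.14 ± 0.11, adjusted p = 0.0295). Igtp and Bst2 had interactions of 1.08 ± 0.11 (adjusted p = 0.0329) and 0.63 ± 0.075 (adjusted p = 0.0408). In Gbp2, Irf1, Igtp and Bst2 the Rad21 arrays of replicates 3-4 were the highest of all arrays.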

How the data were processed

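Gene expression was measured on 8 Affymetrix Mouse Genome arrays. The deposited values are log2 signals that the authors made with GCRMA in Partek 6.4, which corrects background by GC content and by default scales probe intensities to common quantiles, which can hide a shift of the whole transcriptome. Of 45101 probe sets, 64 controls were left out. Symbols came from the platform annotation, and 34945 probe sets had a single symbol, 932 several and 9160 none here. A gene was its brightest single-symbol probe set.

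The set comparison was a linear model on esiRNA and set, and the interaction and within-esiRNA differences came from a model of the 4 groups (limma 3.58.1, lmFit and eBayes, R 4.3.3), two-sided, with Benjamini-Hochberg adjustment over all probe sets. The replicate block needed statmod 1.5.0. Tables were handled in data.table (version 1.17.8), promoters searched in Python 3.11.15 and plots drawn in matplotlib 3.10.9. The members, the 37 gene lists and the tests were chosen with earlier results of these data known. Named by rule were, in each direction, the 12 called genes of greatest set difference with sets that did not overlap within either esiRNA and a highest group mean of at least 5, each Rad21 probe set, the 6 largest interactions each way, up to 4 called members of each list in each direction, defining cell type markers, Hopx and Fgf5. Further members of the described lists, among them Vegfa, Ebp, Atf4, Ddit3, Aldh1l2, Herpud1, the p53 targets with a called interaction and the interferon-induced genes, were named after their values were seen. Where a gene had several called probe sets, their signs differed in 2 of 67 genes. Other probe sets of a named gene were not always called. Trpm1 was called in 1 of 4 (set differences from -2.02 to 0.033), Serpinf1 in 1 of 2 (0.051 and 0.98) and Anxa2 in 1 of 3 (-0.81 to 0.014). Krt8 was called in 3 of 3 and Ldhb in 4 of 4. The interactions of Msx1 and Mrc2 were called in 1 of 2 probe sets each. The tests were tried on simulated data with independent normal noise. At an adjusted p under 0.05, 6.82% of set calls and 6.47% of interaction calls there were false. Recovery was 55.9% for set differences of 0.3 and 90.6% for those of 1. For interactions it was 50.9% at a size of 0.6 and 92.2% at 2. Alternatives were the plain analysis of variance that the study's methods name, a variance trend, a minimum mean, other scalings, array weights, fewer probe sets, each array left out, other thresholds, the mean of a gene's probe sets, the replicate block, each esiRNA alone and the 18S rRNA covariate. The number of arrays limits the precision.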

Additional observations from a re-analysis of the deposited data

Results flagged for a closer look

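For 28 of the genes described, the set difference within Rad21 arrays differed from that within Luc arrays by the interaction term of the linear model (adjusted p from 0.0096 to 0.0491). On the log2 scale the interaction was 2.03 for Chac1, 1.92 for Hopx, 1.89 for Egln3, 1.83 for Mrc2, 1.82 for Msx1, 1.77 for Tmprss13, 0.92 for Bnip3, 0.88 for Ddit4, 1.16 for Egln1, 1.19 for Ndrg1, 0.93 for P4ha2, 0.98 for Herpud1, 0.63 for Bst2, 1.41 for Gbp2, 1.08 for Igtp, 1.14 for Irf1, 1.05 for Ccng2 and 0.44 for Tigar, each a more positive set difference within Rad21. It was -1.41 for Trpm1, -1.85 for Parva, -1.66 for H3f3b, -1.45 for Dpp4, -1.44 for Pcdh8, -1.40 for Tsix, -0.81 for Pax6, -1.19 for Aldh1l2, -0.64 for Sesn2 and -0.65 for Eda2r, each a more negative set difference within Rad21. None of these interactions was called with the 18S rRNA signal as a covariate. That fit could hardly tell the signal apart from the interaction, so the lost calls decide nothing about its part.

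Within a set of 4 arrays, after each esiRNA's mean had been subtracted, 1 array stood far from the other 3 in 10 of 248 tests of 124 probe sets. Chance gives about 1 in 20 such flags. The gap to the nearest array over the whole range was 0.843 for Serpinf1 (Luc replicate 1 high), 0.866 for Cav1 (Luc replicate 1 low), 0.83 for Lgals3 (Luc replicate 1 low), 0.929 for Krt18 (Rad21 replicate 2 low), 0.935 for Npc2 (Luc replicate 2 high) and 0.863 for Kdr (Luc replicate 2 high) in replicates 1-2. In replicates 3-4 it was 0.857 for Snai2 (Rad21 replicate 3 low), 0.831 for Narf (Rad21 replicate 3 high), 0.892 for Psat1 (Luc replicate 3 low) and 0.855 for Srebf1 (Luc replicate 4 high).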

How the results depend on the processing

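Counts of calls moved with the processing. Counts of listed genes below are those called in the direction given in the report. The plain analysis of variance called 114 probe sets between the sets, 0 probe sets for the interaction (4541 at an unadjusted p under 0.05), 1 cholesterol gene, 1 lysosome gene, 0 glycolysis genes (12 at an unadjusted p under 0.05), 1 hypoxia gene, 1 stress response gene, 2 adhesion genes, 0 fatty acid genes (5 at an unadjusted p under 0.05), 0 germline genes (9 at an unadjusted p under 0.05) and 0 hypoxia genes for the interaction (14 at an unadjusted p under 0.05). With a minimum mean of 4 there were 8 hypoxia genes and 5 germline genes. The Rad21 probe set then differed by 0.51 (adjusted p = 0.0306). Array weights gave 92 probe sets for the interaction, 197 probe sets within Luc, 2168 probe sets within Rad21 and 3 glycolysis genes. The Rad21 probe set then differed by 0.61 (adjusted p = 0.0265). Without probe sets of names ending in _x_at, _s_at or _a_at, fewer probe sets were tested, and 532 were called between the sets and 761 within Luc. The lists then had 3 lysosome genes, 1 glycolysis gene, 2 stress response genes and 2 adhesion genes. A gene whose brightest probe set had such a name dropped out of these counts, so they do not measure lost calls alone. Of the named set differences that remained, 53 kept their result and 3 lost their call. At an adjusted p under 0.01 the counts were 107 probe sets between the sets, 6 probe sets for the interaction, 176 probe sets within Luc, 133 probe sets within Rad21, 5093 probe sets for the knock-down, 1 cholesterol gene, 1 lysosome gene, 0 glycolysis genes (15 at an unadjusted p under 0.05), 1 hypoxia gene, 1 stress response gene, 2 adhesion genes, 0 germline genes (12 at an unadjusted p under 0.05) and 0 hypoxia genes for the interaction (16 at an unadjusted p under 0.05). At an adjusted p under 0.1 there were 1684 probe sets between the sets, 978 probe sets for the interaction, 2203 probe sets within Luc, 2245 probe sets within Rad21, 8 hypoxia genes, 5 germline genes and 10 hypoxia genes for the interaction. The Luc arrays alone gave 322 probe sets between the sets, 3 cholesterol genes, 0 lysosome genes (13 at an unadjusted p under 0.05), 2 glycolysis genes, 12 hypoxia genes, 1 stress response gene and 1 germline gene. The Rad21 arrays alone gave 0 probe sets between the sets (7100 at an unadjusted p under 0.05), 0 cholesterol genes (14 at an unadjusted p under 0.05), 0 lysosome genes (15 at an unadjusted p under 0.05), 0 glycolysis genes (9 at an unadjusted p under 0.05), 0 hypoxia genes (12 at an unadjusted p under 0.05), 0 stress response genes (19 at an unadjusted p under 0.05), 0 adhesion genes (8 at an unadjusted p under 0.05), 0 fatty acid genes (7 at an unadjusted p under 0.05) and 0 germline genes (9 at an unadjusted p under 0.05). The set effect of the fit with the interaction called 2120 probe sets between the sets, 9 glycolysis genes, 16 hypoxia genes, 16 stress response genes, 8 adhesion genes, 5 fatty acid genes and 7 germline genes. The Rad21 probe set then differed by 0.51 (adjusted p = 0.0133). The 18S rRNA signal as a covariate, chosen after seeing the data, gave 1490 probe sets between the sets, 0 probe sets for the interaction (1868 at an unadjusted p under 0.05), 0 probe sets within Luc (2305 at an unadjusted p under 0.05), 0 probe sets within Rad21 (3810 at an unadjusted p under 0.05), 11 hypoxia genes, 17 stress response genes and 0 hypoxia genes for the interaction (6 at an unadjusted p under 0.05). The Rad21 probe set then differed by 0.57 (adjusted p = 0.0182). The 18S rRNA covariate could hardly be told apart from the interaction or from the set differences within an esiRNA. With each array left out in turn, the 8 fits called 265 to 419 probe sets between the sets, 0 to 315 probe sets for the interaction, 373 to 935 probe sets within Luc, 364 to 839 probe sets within Rad21, 6774 to 7533 probe sets for the knock-down, 3 to 6 cholesterol genes, 2 to 5 lysosome genes, 0 to 3 glycolysis genes, 2 to 3 hypoxia genes, 1 to 3 stress response genes, 2 to 4 adhesion genes, 3 fatty acid genes, 1 to 2 germline genes and 0 to 5 hypoxia genes for the interaction by limma, and the Rad21 probe set differed by 0.43 to 0.59. Of the set differences of 84 named genes, none changed sign in these 8 fits. Apart from Hopx and Fgf5 these genes were named for being called, and the largest also for sets that did not overlap. A kept sign was therefore largely fixed by the choice of genes. The signs that did change were those of Fgf5 (0.037, adjusted p = 0.937, with array weights, and 0.35, adjusted p = 0.408, in the Rad21 arrays alone) and Hopx (-0.36, adjusted p = 0.0701, in the Luc arrays alone), neither called in the set comparison. Quantile normalization, centring on bright probe sets, a variance trend with a robust prior and the mean of a gene's probe sets kept each of these counts within 1.5 times. Causes were not tested.

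For equal replicate numbers, the correlations of the deviations from the esiRNA's mean were 0.0215, 0.133, 0.0735 and 0.132, and these deviations include the set difference. Between the esiRNAs, replicate 1 minus 2 correlated at -0.0658 and replicate 3 minus 4 at -0.0379. These values show no common deviation of equal numbers within a set. They cannot tell whether samples of equal number were prepared together. The replicate number as a random replicate block was added to the model without the interaction, which therefore stayed in the residuals (consensus correlation -0.208). That fit called 1769 probe sets between the sets, 8 glycolysis genes, 8 hypoxia genes and 5 germline genes. The Rad21 probe set then differed by 0.51 (adjusted p = 0.0269). Averaging both esiRNAs per replicate number, another form of the replicate block, which called 814 probe sets between the sets, gave 5 cholesterol genes, 4 lysosome genes, 12 hypoxia genes and 3 adhesion genes. The Rad21 probe set then differed by 0.51 (adjusted p = 0.0399). As a fixed replicate block it left 0 probe sets for the interaction (4890 at an unadjusted p under 0.05) and 0 hypoxia genes for the interaction (14 at an unadjusted p under 0.05). Dim probe sets lie on a plateau of the GCRMA values, which hides changes there.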
